A study of Homo sapiens with 12 samples.

Results

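The effect of HAND2 knockdown in cells whose MYCN was already reduced was measured by comparing a combined knockdown with a MYCN knockdown alone, in 6 of the 12 RNA sequencing samples of the series. The cells were IMR32, a human neuroblastoma line with amplified MYCN. They were electroporated with siRNA and grown in standard medium for 72 h. The siMYCN group received SiMYCN_2, the combined group received SiM2 with SiH2_3, and each had 3 samples. The remaining groups, also of 3 samples, received a control siRNA (siCtrl, SiCTR) or SiHAND2_3 (siHAND2). They give the effect of HAND2 knockdown without the MYCN siRNA. A single siRNA was named for each target and a single line was used, so an effect of the siRNA on other transcripts cannot be told apart from an effect of its target. The labels do not state whether the samples of a group came from separate cultures, so the p-values measure the spread between these samples.

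HAND2 is a basic helix-loop-helix transcription factor of the sympathetic lineage. It binds E-box DNA with E proteins such as TCF3, TCF4 and TCF12, and ID proteins block that pairing. In adrenergic neuroblastoma HAND2, GATA3, ISL1 and TBX2 belong to a set of factors that bind one another's enhancers and maintain the noradrenergic state. MYCN drives growth and division, and it also occupies many of those enhancers when amplified. The comparison asks which transcripts differ when HAND2 is lowered together with MYCN rather than MYCN alone; the labels record no order of the knockdowns.

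The estimated depth was 37.9 to 42.5 M reads in the siMYCN samples and 38.6 to 64.2 M in the combined samples, so that 3 reads were worth 0.0468 to 0.0791 CPM (counting error only). The genes of the deposited table held 63.3, 62.5 and 61.3% of all reads in the siMYCN samples and 58.4, 51.4 and 44.3% in the combined samples. The groups did not overlap, their means were 62.4 and 51.4%, and the exact two-sided permutation p was 0.1, the smallest that 3 against 3 samples allow. CPM, the read count scaled to the size of the whole library, is therefore lower for most genes in the combined samples, and every comparison is given on 2 scales. One is the CPM as deposited. The other divides each sample by its median ratio to the other samples (0.991, 0.865 and 0.729 in the combined samples, 1.10, 1.09 and 1.08 in siMYCN) and so centres the typical gene. On the log2(CPM + 1) scale the median of all 12680 genes tested was -0.28 as deposited and 0.04 rescaled.

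**Figure D1:**
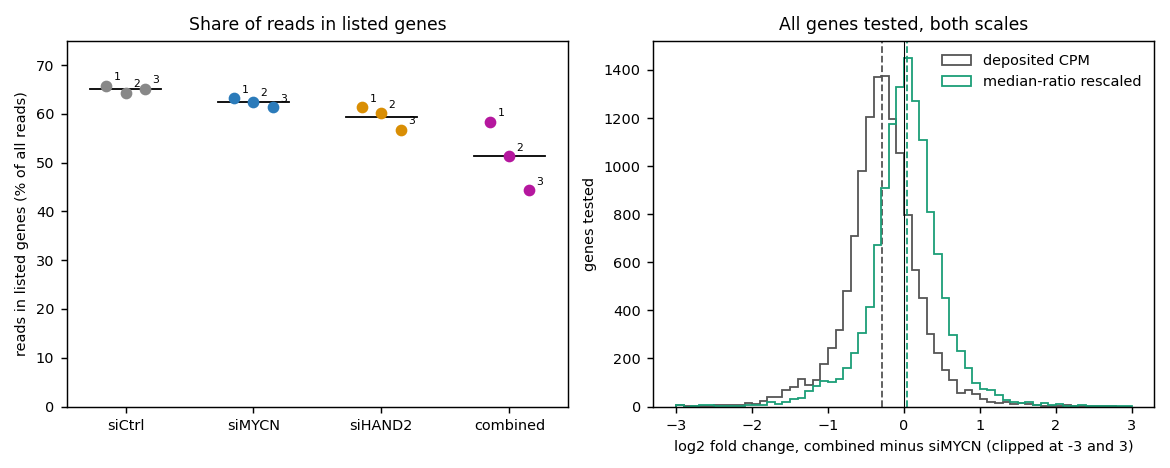
Left, the share of each library's reads that lay in listed genes (y axis, percent), 1 point per sample with its replicate number and a line at each group's mean; the 3 combined samples sit at 58.4, 51.4 and 44.3%, below the siMYCN samples. Right, the number of genes (y axis) by log2 fold change of combined against siMYCN (x axis) on the deposited and the rescaled scale, with dashed lines at the medians of -0.28 and 0.04.

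The cells carried the markers of sympathetic neuroblasts. The 11 markers summed to 1074 to 1106 CPM in siMYCN and 589 to 906 CPM in the combined samples. HAND2, the knockdown target, is among them, with means of 326 CPM in siMYCN and 73.5 CPM in the combined samples. Part of the lower sum is therefore the target itself. Markers of glia, endothelium, blood cells, adrenal cortex and epithelium summed to at most 3.47 CPM per list in any of the 6 samples. The fibroblast list summed to 149 to 159 CPM in siMYCN and 29.9 to 47.2 CPM in the combined samples. Nearly all of that was PDGFRA, while COL1A2, DCN, PRRX1 and TWIST2 were at or under 3 reads in all 6 samples. The melanocyte list stood at 33.8 to 34.8 CPM and 27.9 to 52.5 CPM, with TYR at or under 3 reads.

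HAND2 (chromosome 4, 174447652 to 174451379, minus strand, hg19) stood at 324, 319 and 334 CPM in the siMYCN samples and at 86.3, 67.1 and 67.2 CPM in the combined samples. All 3 combined samples were far below all siMYCN samples, at 22.6% of their mean as deposited and 28.7% rescaled. On the log2 scale this was -2.14 as deposited (SE 0.12, limma adjusted p 2.7e-13) and -1.79 after rescaling (SE 0.09, adjusted p 1.2e-09). Without the MYCN knockdown, HAND2 went from 224, 241 and 254 CPM in siCtrl to 54.3, 64.9 and 67.7 CPM in siHAND2, against 67.1 to 86.3 CPM left in the combined samples. HAND2-AS1, transcribed from the other strand of the same locus, had 151, 140 and 148 CPM in siMYCN and 113, 107 and 99.3 CPM in the combined samples. Its change of -0.46 was called as deposited and not after rescaling (-0.11, limma adjusted p 0.17), except without combined replicate 3 (-0.18, adjusted p 0.028).

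MYCN (chromosome 2, 16080560 to 16087130, plus strand) had 671, 666 and 708 CPM in siMYCN, against 964, 1049 and 1015 CPM in siCtrl, so the label MYCN-low stands for a partial reduction of the transcript. It had 555, 458 and 433 CPM in the combined samples, each below every siMYCN sample. That further difference was -0.51 as deposited (limma adjusted p 7.0e-04) and -0.16 rescaled (adjusted p 0.054), which missed the threshold. It lay at the edge of that threshold, which was passed without combined replicate 3 (-0.20, limma adjusted p 0.016). In siHAND2 MYCN had 899, 844 and 802 CPM, each below every siCtrl sample. That difference was not called on either scale (-0.25 as deposited, limma adjusted p 0.086, and -0.09 rescaled, adjusted p 0.26). The usual MYCN level named below thus means only that no MYCN siRNA was given. The antisense MYCNOS fell on both scales, from 24.97, 26.2 and 27.3 CPM to 17.7, 16.6 and 15.2 CPM. Both targets overlap their antisense transcript, and whether strand entered the counting is not given in the sources used here, so each level may hold reads of its partner.

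Of 12680 genes tested, 7471 (58.9%) were called as deposited, meaning a limma Benjamini-Hochberg adjusted p under 0.05. These were 1131 higher (8.92%) and 6340 lower (50%) in the combined samples. After rescaling 7184 (56.7%) were called, 3806 higher (30%) and 3378 lower (26.6%). The 1131 rises as deposited were all among the rescaled rises, and the 3378 rescaled falls were all among the falls as deposited. Another 2962 genes were lower as deposited and not called after rescaling, 2675 were higher after rescaling and not called as deposited, and no gene was called in opposite directions. Genes called on both scales were thus 1131 higher (8.92%) and 3378 lower (26.6%). A gene group counted as deposited is read against 8.92% higher and 50% lower, and one counted after rescaling against 30% higher and 26.6% lower. With fold changes of at least 2, which is 1 on the log2 scale, 152 genes were higher and 814 lower as deposited, and 342 and 422 rescaled.

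The largest falls included genes for a secreted growth factor, surface receptors, a channel, a scaffold protein and an imprinted RNA. VEGFD (chromosome X, 15363713 to 15402536), a ligand of the lymphatic VEGF receptor, had 29.3, 26.6 and 35.1 CPM in siMYCN and 0.812, 0.756 and 0.629 CPM in the combined samples. It was left at 2.41% of its siMYCN mean, and changed by -4.17 (SE 0.16, limma adjusted p 1.5e-16) and -3.95 after rescaling. ALK (chromosome 2, 29415640 to 30144478), a receptor tyrosine kinase that is mutated in a share of neuroblastomas, had 163, 167 and 159 CPM and then 22.5, 20.7 and 17.7 CPM. That was a change of -2.95 as deposited and -2.61 rescaled (adjusted p 3.9e-12), the highest-expressed receptor among the 10 largest falls. AHNAK (chromosome 11, 62201014 to 62314333), a giant scaffold protein counted among mesenchymal identity genes, went from 363, 444 and 319 CPM to 39.4, 57.4 and 36.9 CPM. All these sets of samples were separate, which the choice of the 10 largest falls required.

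The other large falls included receptor and channel genes. TRIL, a helper of Toll-like receptor signalling, had 12.7, 15.5 and 14.0 CPM in siMYCN and 0.499, 0.466 and 0.195 CPM in the combined samples. PTGFR, the receptor for prostaglandin F2 alpha, had 19.2, 18.9 and 19.2 CPM and then 1.14, 0.959 and 0.585 CPM. The kappa opioid receptor gene OPRK1 had 17.7, 18.5 and 19.6 CPM and then 1.11, 1.43 and 0.78 CPM. KCNQ5, a subunit of the M-type potassium channel, was left at 3.81% of its siMYCN mean. SEZ6, a neuronal membrane protein, was left at 10.7%, the GTPase-activating protein gene ARHGAP29 at 12.1%, and the maternally expressed imprinted RNA H19 at 5.68%. For these 7 genes the rescaled changes lay between -3.28 and -2.56. No combined sample reached a siMYCN sample on either scale, as their selection required.

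Among the largest rises were genes of growth cones, synapses and neuronal transcription. GAP43 (chromosome 3, 115342151 to 115440335), the growth cone phosphoprotein, had 28.2, 27.5 and 26.9 CPM in siMYCN and 222, 169 and 143 CPM in the combined samples. It rose by 2.63 (SE 0.13, limma adjusted p 1.7e-14) and by 2.97 rescaled. SDK2 (chromosome 17, 71330523 to 71640228), a synaptic adhesion molecule, had 11.8, 9.71 and 11.3 CPM and then 69.9, 93.8 and 72.5 CPM, a rise of 2.73 and 3.07. NHLH1 (chromosome 1, 160336861 to 160342639), a neuronal basic helix-loop-helix factor, had 14.7, 13.1 and 12.4 CPM and then 81.9, 76.4 and 58.7 CPM. ERBB4, a neuregulin receptor, had 4.27, 4.32 and 4.92 CPM and then 22.8, 31.7 and 24.1 CPM. In each of these genes every combined sample lay far above every siMYCN sample, and separate samples were a condition of their choice.

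RPRM, which encodes the p53-linked cell cycle inhibitor Reprimo, had 6.96, 5.90 and 7.93 CPM in siMYCN and 48.6, 42.2 and 40.2 CPM in the combined samples. ENC1, an actin-associated protein induced in neuronal differentiation, had 27.5, 28.8 and 26.8 CPM and then 183, 147 and 128 CPM. MEG3, an imprinted long noncoding RNA, had 11.4, 9.66 and 10.2 CPM and then 56.9, 56.4 and 78.5 CPM. PPP1R17, a phosphatase inhibitor, the acid-sensing channel gene ASIC1 and the potassium channel gene KCNJ6 completed the 10 largest rises, and reached 679%, 624% and 797% of their siMYCN means. The rescaled rises of these 6 genes lay between 2.58 and 2.89. No sample of the groups overlapped on either scale, which was again a condition of their choice.

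**Figure D2:**
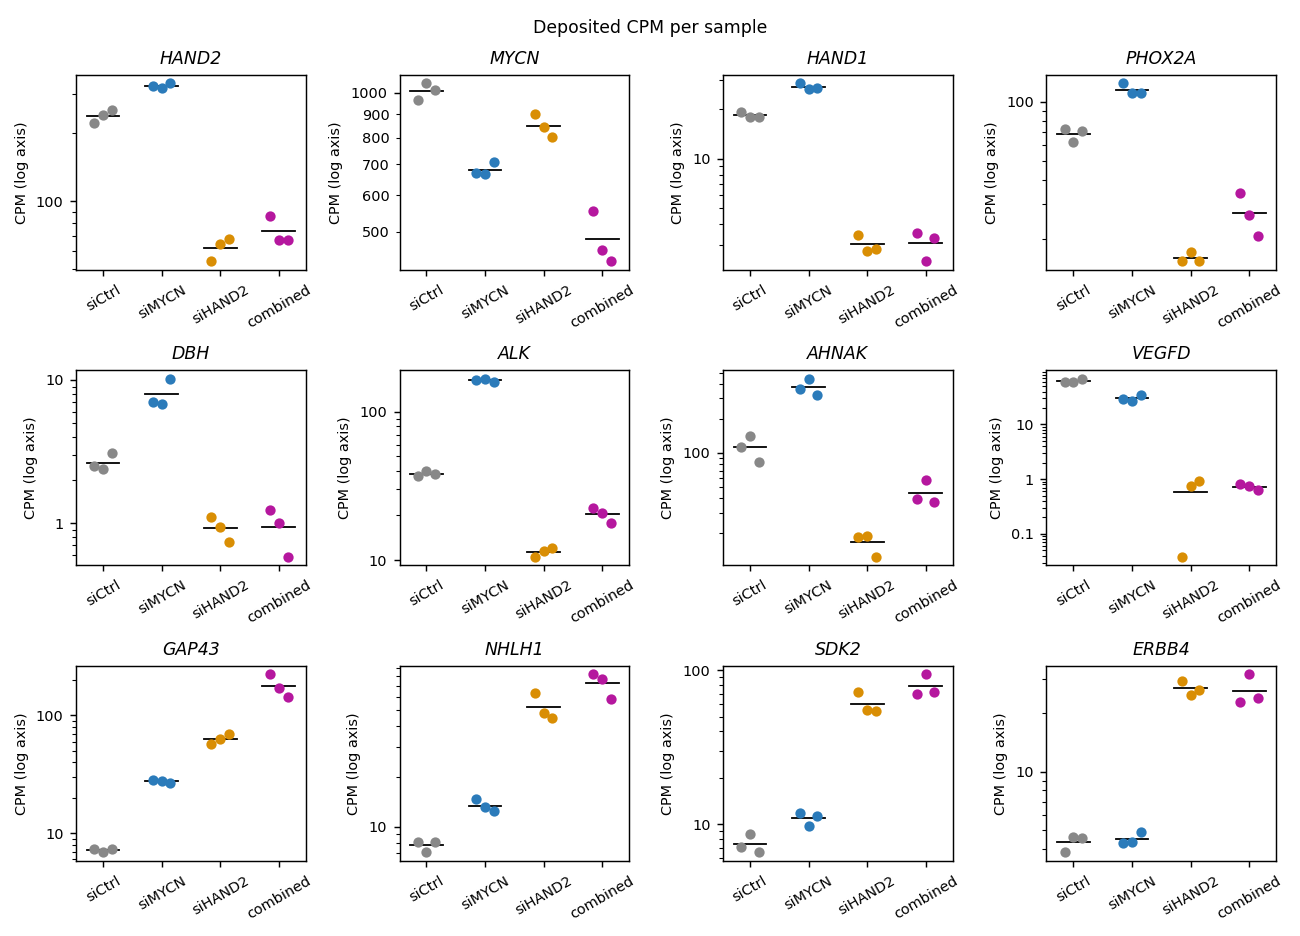
Deposited CPM (y axis, log scale) of 12 genes in each of the 12 samples, 1 point per sample in replicate order, with a line at each group's mean. HAND2, HAND1, PHOX2A, DBH, ALK, AHNAK and VEGFD are lower in the combined samples than in siMYCN, for example ALK at 17.7 to 22.5 CPM against 159 to 167 CPM, and GAP43, NHLH1, SDK2 and ERBB4 are higher.

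Promoter windows were searched for the HAND2 core motif CATCTG and for the MYC E-box CACGTG, reading both strands from 250 bases before to 50 bases after each RefSeq start (GRCh38.p14). The largest falls had CATCTG in 3 of 8 matched promoters (VEGFD, H19 and ALK, 37.5%) and the largest rises in 1 of 8 (NHLH1, 12.5%). The share was 8.99% over the 9663 tested genes with a promoter and 14.8% over all 27305 promoters. None of these 16 promoters held CACGTG, which 10.4% of the tested genes' promoters held. The largest fall and the one rising gene with the motif are shown with CATCTG or its reverse complement in capitals, from 240 to 161 bases before the start, VEGFD from chrX:15384574-15384653 (minus strand) and NHLH1 from chr1:160366831-160366910 (plus strand).
VEGFD: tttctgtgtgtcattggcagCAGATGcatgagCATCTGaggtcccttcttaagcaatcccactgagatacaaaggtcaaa
NHLH1: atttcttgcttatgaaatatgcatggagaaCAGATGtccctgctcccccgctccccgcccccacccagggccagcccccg
VEGFD held the motif at 2 places and NHLH1 at 1. A match is a description of letters and says nothing of binding.

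HAND1, the close relative of HAND2, fell with it, from 28.8, 26.5 and 27.1 CPM to 3.55, 2.38 and 3.29 CPM (-2.81 as deposited, -2.52 rescaled, limma adjusted p 3.3e-10). Of 17 tested genes among HAND factors and their bHLH partners and inhibitors, 4 were higher and 7 lower as deposited, and 7 and 6 rescaled. The inhibitor ID4 rose from 3.64, 3.71 and 4.35 CPM to 15.04, 14.6 and 9.85 CPM (1.51 and 1.82), and ID1 rose on both scales while ID2 and ID3 were called only after rescaling (0.37 and 0.48). The E protein genes differed little: TCF3 fell by 0.52 as deposited and by 0.17 rescaled, TCF4 was not called on either scale, and TCF12 was called only after rescaling (0.28).

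The adrenergic transcription factors did not move together. Of 22 tested, 5 were higher and 10 lower as deposited (median -0.07), against 8.92% and 50% of all genes. After rescaling 10 were higher and 7 lower (median 0.20), against 30% and 26.6%. The falls lay near these shares and the rises above them. PHOX2A, a homeobox factor that activates noradrenaline synthesis genes, fell from 124, 111 and 111 CPM to 34.4, 26.3 and 20.5 CPM (-2.08, and -1.74 rescaled with a limma adjusted p of 4.7e-10). ISL1, a LIM homeobox factor, rose from 31.6, 29.4 and 32.1 CPM to 72.3, 62.4 and 57.8 CPM, and the zinc finger gene ZNF536 from 22.3, 22.5 and 23.8 CPM to 64.4, 58.9 and 44.6 CPM. MEIS2, a TALE homeobox factor, fell to 29.98% of its siMYCN mean, with all samples separate. GATA3 changed by -0.56 as deposited and was not called after rescaling (-0.22, limma adjusted p 0.12). The pattern within the group was thus one of single genes in either direction.

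Mesenchymal factors and identity genes were mostly lower, with 1 of 15 tested higher and 11 lower as deposited (median -0.64) and 3 and 10 rescaled (median -0.38). Besides AHNAK, the hyaluronan receptor CD44 fell from 6.86, 5.95 and 6.33 CPM to 1.09, 1.22 and 0.609 CPM, and the intermediate filament gene VIM from 199, 230 and 185 CPM to 112, 92.1 and 58.5 CPM. The summed fibroblast markers given above were lower in the same samples, and their part in this result was not tested. Bulk RNA cannot tell fewer cells of a type from less RNA per cell. Within the MYC network, the MAX partner MXD3 fell (-1.43 and -1.13) and the MYC antagonists MXI1 and MXD1 rose (0.52 and 0.45 as deposited, 0.86 and 0.79 rescaled), while MAX was not called on either scale. As deposited, 1 MXD1 sample of the combined group (17.2 CPM) equalled the highest siMYCN sample to 3 digits.

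Of 9 tested catecholamine genes 4 were lower on both scales, DBH, SLC6A2, MAOA and QDPR. None was higher on either scale, 6 were lower as deposited, near the background of 50%, and 5 did not pass after rescaling. DBH, which converts dopamine to noradrenaline, had 7.04, 6.77 and 10.2 CPM in siMYCN and 1.23, 1.01 and 0.585 CPM in the combined samples, a change of -2.21 (SE 0.15, limma adjusted p 5.2e-12) that was also called after rescaling. The noradrenaline transporter gene SLC6A2 fell from 52.9, 49.4 and 48.7 CPM to 17.6, 14.7 and 11.4 CPM. MAOA, which degrades monoamines, fell from 59.5, 65.5 and 55.8 CPM to 18.9, 13.9 and 9.43 CPM, and QDPR, which recycles the hydroxylase cofactor, to 46.5% of its siMYCN mean. TH was at a mean of 0.35 CPM in siMYCN and 1.58 CPM in the combined samples and did not reach the level for testing. Among 7 cholinergic genes, CHRNA7 and SLC18A3, the nicotinic receptor subunit and the vesicular acetylcholine transporter, fell on both scales (-1.21 and -1.13 as deposited). Near copies of CHRNA7 exist and SLC18A3 lies within CHAT on the same strand, so both levels are uncertain.

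Neuropeptide genes split by member. VIP, the vasoactive intestinal peptide, fell from 4.38, 4.69 and 2.24 CPM to 0.281, 0.311 and 0.195 CPM. Galanin (GAL) fell from 96.5, 91.4 and 91.1 CPM to 68.3, 51.5 and 37.1 CPM, and ADCYAP1, which encodes PACAP, to 60.6% of its siMYCN mean. The granin SCG2 rose instead, from 131, 141 and 125 CPM to 283, 222 and 157 CPM (0.70 and 1.04). Of the 11 tested members 1 was higher and 4 lower as deposited, against 8.92% and 50% of all genes. After rescaling 6 were higher and 3 lower, against 30% and 26.6%. Only the rescaled rises lay above these shares by more than a little.

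Genes of the neuronal cytoskeleton and growth cone were more often higher. Of 34 tested, 12 were higher and 7 lower as deposited (median 0.07), 25 and 5 rescaled (median 0.42), and 18 and 5 as deposited without combined replicate 3, the sample with the smallest share of reads in listed genes. Beside GAP43, the microtubule protein MAPT (tau) rose from 16.3, 15.4 and 15.4 CPM to 49.7, 42.7 and 33.2 CPM, and the stathmin STMN4 from 15.8, 12.4 and 14.5 CPM to 48.0, 35.9 and 27.5 CPM. TUBB3, the neuronal beta tubulin, chosen after its values were seen, rose from 261, 243 and 244 CPM to 569, 444 and 357 CPM. CNTN1, a cell adhesion molecule of axons, fell from 143, 146 and 140 CPM to 43.7, 34.6 and 23.2 CPM (-2.09 and -1.75), the largest change in the group after GAP43. All 6 samples of each of these genes were separated by group.

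Synaptic vesicle genes had 9 of 28 tested members higher and 5 lower as deposited, and 19 and 4 rescaled (medians 0.16 and 0.46). The vesicle glycoprotein SV2B rose from 0.633, 0.445 and 0.471 CPM to 6.72, 6.04 and 5.46 CPM and its paralog SV2C from 10.8, 11.8 and 10.96 CPM to 24.4, 31.0 and 19.8 CPM. RAB3A, the vesicle GTPase, and ERC2, an active zone scaffold, rose by 1.07 and 0.58 as deposited. Voltage-gated and potassium channels had 14 of 33 higher and 10 lower, and 18 and 6 rescaled. Apart from KCNJ6 and KCNQ5, the T-type calcium channel gene CACNA1H rose from 26.1, 24.0 and 26.4 CPM to 83.2, 75.1 and 66.7 CPM, and the sodium-activated potassium channel gene KCNT2 from 26.4, 26.7 and 30.2 CPM to 74.4, 86.3 and 99.5 CPM.

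Axon guidance genes changed in both directions, 8 of 33 tested higher and 13 lower as deposited, and 13 and 11 rescaled. Over all genes 8.92% were higher and 50% lower as deposited, and 30% and 26.6% rescaled. The rescaled counts were not far from these shares. The secreted semaphorin SEMA3C rose from 0.844, 0.865 and 0.588 CPM to 10.6, 8.45 and 6.22 CPM, while SEMA3A fell from 9.42, 8.52 and 8.16 CPM to 2.68, 3.21 and 1.90 CPM. Their shared receptor subunit NRP1 fell from 47.5, 56.5 and 45.2 CPM to 13.2, 11.5 and 7.12 CPM (-2.16 and -1.83). The SLIT receptor gene ROBO1 rose from 61.5, 66.1 and 59.0 CPM to 128, 133 and 104 CPM. No sample of one group lay within the range of the other in these 4 genes.

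Growth factor receptors had 5 of 19 higher and 11 lower as deposited (median -0.89), against 8.92% and 50% of all genes. After rescaling 6 were higher and 10 lower (median -0.56), against 30% and 26.6%. GFRA2, the neurturin coreceptor, fell from 270, 291 and 259 CPM to 86.6, 67.8 and 52.2 CPM, next to ALK. PDGFRA, EGFR, FGFR1, FGFR2, KIT, RET and NGFR were also lower on both scales, by between 0.89 and 1.99 as deposited. NTRK3, the neurotrophin-3 receptor, rose with ERBB4, from 3.96, 3.48 and 3.11 CPM to 14.0, 13.8 and 13.0 CPM. Among 6 VEGF genes VEGFA alone was higher on both scales, from 4.27, 4.74 and 4.02 CPM to 10.3, 8.29 and 7.61 CPM, while VEGFD, VEGFC and the receptor gene FLT4 were lower. The VEGFC samples stood at 0.914 to 1.60 CPM in siMYCN and 0.337 to 0.514 CPM in the combined group. Set beside siCtrl, ALK averaged 20.3 CPM in the combined samples against 38.1 CPM, and VEGFD 0.732 against 62.3 CPM.

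Heparan sulfate proteoglycans and their enzymes had 4 of 22 higher and 12 lower as deposited, near the background of 50% lower, and 7 and 10 rescaled. SULF2, an extracellular sulfatase, fell from 45.8, 46.7 and 35.5 CPM to 9.90, 7.46 and 3.68 CPM, and the cell surface syndecans SDC2 and SDC1 to 15.5% and 33.8% of their siMYCN means. AGRN, which encodes agrin, rose from 10.3, 9.66 and 10.4 CPM to 27.7, 22.4 and 19.7 CPM. Matrix genes were lower in 17 of 24 and higher in 5 as deposited (median -0.68), and 14 and 7 rescaled. SPARC, a matricellular protein, fell from 67.9, 63.9 and 59.4 CPM to 17.1, 14.3 and 9.09 CPM, and the collagen genes COL25A1 and COL1A1 to 12.0% and 12.7%. RELN, the neuronal glycoprotein reelin, rose from 1.00, 0.939 and 0.682 CPM to 7.76, 9.33 and 4.97 CPM.

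Replication and mitosis genes fell without exception on both scales. All 44 tested DNA replication genes were lower, with medians of -1.46 as deposited and -1.13 rescaled and a rescaled range from -1.74 (GINS3) to -0.56 (RFC3). All 40 tested mitosis genes were lower too, with medians of -1.45 and -1.11 and a rescaled range from -1.49 (KIF23) to -0.63 (CENPF). The groups did not overlap for any of these 84 genes on either scale, and the counts were the same without combined replicate 1 or 3. By comparison 26.6% of all tested genes were lower on both scales.

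Among replication genes, GINS3, a subunit of the replicative helicase, went from 71.3, 73.4 and 68.3 CPM to 20.7, 16.5 and 12.2 CPM. The salvage kinase gene TK1 went from 76.5, 73.0 and 66.7 CPM to 24.7, 18.4 and 14.1 CPM. ORC1, which marks replication origins, and TYMS, which makes thymidylate, were left at 26.4% and 28.5% of their siMYCN means. Among mitotic genes the kinesins KIF23, KIF20A and KIF11 and the cytokinesis scaffold ANLN were left at 27.6 to 30.5%. KIF11 had 123.4, 136 and 124 CPM in siMYCN and 48.8, 37.5 and 30.3 CPM in the combined samples.

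The G1 genes followed in part, 1 of 18 higher and 15 lower as deposited (median -0.82), and 2 and 12 rescaled (median -0.49). CDK2 fell from 58.3, 57.0 and 53.2 CPM to 21.5, 15.4 and 15.8 CPM, its partner CCNE2 from 20.4, 21.7 and 21.8 CPM to 7.39, 6.49 and 7.12 CPM, and the phosphatase gene CDC25A to 33.3% of its siMYCN mean. CDKN1C, which encodes the inhibitor p57, rose from 7.68, 8.25 and 7.72 CPM to 13.5, 10.8 and 8.31 CPM. Its rise of 0.40 missed the threshold as deposited without combined replicate 1 (0.24, limma adjusted p 0.052). CDKN1A, the p53-induced inhibitor, was not called on either scale.

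The promoters of the division genes that fell are shown because they carry the elements through which such genes are known to be switched during the cell cycle. E2F factors bind TTTGGCGC or TTTCCCGC, and the letters were present on either strand in 18 of 39 matched replication promoters (46.2%), against 3.73% of the tested genes' promoters and 2.31% of all. The cell cycle genes homology region, TTTGAA, was present in 26 of 34 mitosis promoters (76.5%), against 9.36% of the tested genes' and 15.4% of all. CCAAT was present in 76.5% of the mitosis promoters and 37.2% of the tested genes'. Overlap of one motif with another was not counted. The 100 bases before the RefSeq start are printed for 3 genes with the E2F letters and 3 with TTTGAA or its reverse complement, in capitals, from chr18:657553-657652 (TYMS, plus strand), chr3:48188418-48188517 (CDC25A, minus), chr20:33686386-33686485 (E2F1, minus), chr10:92593030-92593129 (KIF11, plus), chr15:69414249-69414348 (KIF23, plus) and chr16:23678789-23678888 (PLK1, plus) of GRCh38.p14.
TYMS: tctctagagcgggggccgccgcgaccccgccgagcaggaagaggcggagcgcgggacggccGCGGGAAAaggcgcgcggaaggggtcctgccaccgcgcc
CDC25A: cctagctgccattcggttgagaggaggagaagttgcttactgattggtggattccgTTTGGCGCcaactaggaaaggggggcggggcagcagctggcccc
E2F1: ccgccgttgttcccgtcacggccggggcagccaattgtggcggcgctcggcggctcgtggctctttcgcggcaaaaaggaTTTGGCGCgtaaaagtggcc
KIF11: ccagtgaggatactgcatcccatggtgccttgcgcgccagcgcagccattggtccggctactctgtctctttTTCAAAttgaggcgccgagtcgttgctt
KIF23: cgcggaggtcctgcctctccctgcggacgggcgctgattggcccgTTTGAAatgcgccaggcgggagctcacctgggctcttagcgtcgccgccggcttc
PLK1: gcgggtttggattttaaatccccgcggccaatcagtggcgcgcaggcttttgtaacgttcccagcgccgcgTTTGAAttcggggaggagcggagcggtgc
E2F1 and PLK1 were chosen for display after their values were seen, and fell by 1.10 and 1.38 as deposited and by 0.76 and 1.04 rescaled. Whether the factors that read these letters were altered was not tested.

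**Figure D3:**
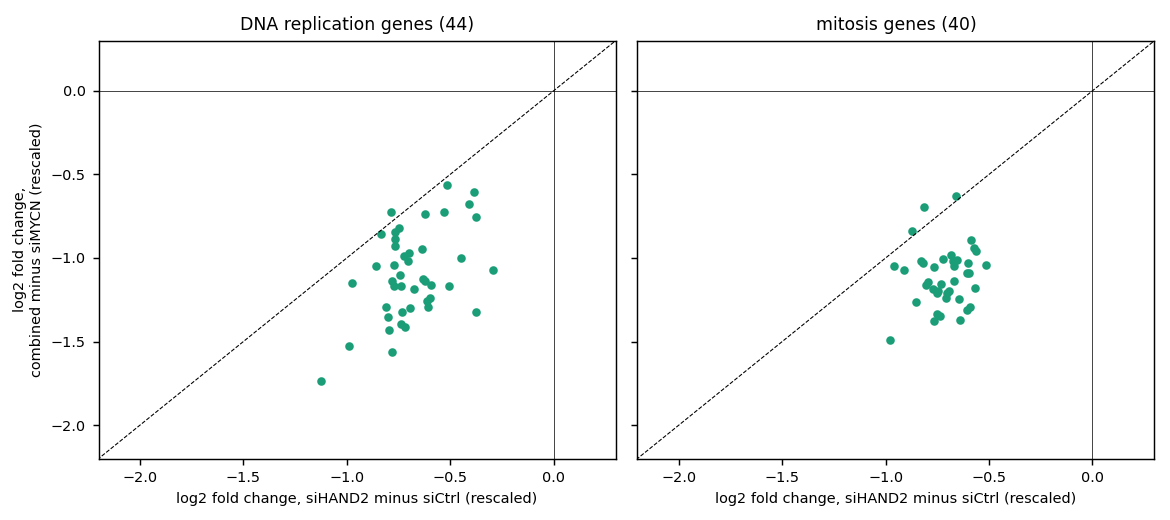
Rescaled log2 fold change of each DNA replication gene (left, 44 points) and mitosis gene (right, 40 points), combined against siMYCN (y axis) and siHAND2 against siCtrl (x axis), with a dashed line where both are equal. All points lie below 0 on both axes, and 43 and 37 of them lie below the dashed line.

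Growth and metabolism genes were lower by less. Ribosome biogenesis genes had 0 of 43 higher and 40 lower as deposited (median -0.56), but 1 and 25 rescaled (median -0.22). The nucleolar protein gene NCL went from 405, 418 and 388 CPM to 281, 204 and 166 CPM, and the processome gene UTP20, the pseudouridine synthase gene DKC1 and its partner GAR1 to 53.03 to 56.7% of their siMYCN means. Nucleotide, one-carbon and polyamine genes had 27 of 32 lower as deposited and 21 rescaled, led by MTAP (15.2, 16.3 and 14.9 CPM, then 5.13, 3.55 and 2.73 CPM), PRPS2, MTHFD1 and SHMT1. Cholesterol genes had 21 of 24 lower as deposited and 19 rescaled (medians -0.88 and -0.54). SQLE, the squalene epoxidase, went from 148, 147 and 148 CPM to 76.9, 66.8 and 56.1 CPM, and EBP and ACAT2 to 43.6 and 44.1% of their siMYCN means. Glycolysis genes had 14 of 19 lower as deposited, and 12 lower with 4 higher rescaled. LDHA, which makes lactate, went from 332, 323 and 305 CPM to 142, 126 and 98.4 CPM, and PFKP, ENO1 and PKM were left at 45.8 to 49.9% of their siMYCN means.

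Cytosolic ribosomal protein genes went the other way. As deposited 21 of 80 were higher and 1 lower (median 0.16), against 8.92% and 50% of all genes. After rescaling 76 were higher and none lower (median 0.51), against 30% of all genes. The RPL26 samples had 411, 386 and 397 CPM in siMYCN and 567, 483 and 650 CPM in the combined group, and RPL34, RPL37 and RPS3 were at 138 to 144% of their siMYCN means. The exception as deposited was RPL22L1, a paralog used in particular cell types, at 59.8, 50.9 and 56.5 CPM and then 39.1, 31.7 and 44.5 CPM. Without combined replicate 1 the deposited counts were 20 higher and 8 lower, so the number of falls rested on that sample. Ribosomal protein genes have many processed pseudogenes, and how reads matching both were counted is not given in the sources used here.

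Immediate early and AP-1 genes were higher in 8 of 16 as deposited and 15 of 16 rescaled, and lower in none (medians 0.32 and 0.65). The genes that moved most were targets and feedback inhibitors of ERK signalling. ETV5 rose from 27.5, 31.1 and 23.0 CPM to 76.6, 65.1 and 46.3 CPM, and ETV4, SPRY2 and SPRY4 to 186 to 248% of their siMYCN means. Stress genes of the integrated stress and unfolded protein responses had 7 of 28 higher and 10 lower as deposited, and 14 and 7 rescaled. DDIT3, the CHOP transcription factor, rose from 4.56, 4.67 and 4.12 CPM to 17.3, 14.8 and 14.2 CPM, ATF3 from 3.64, 3.63 and 3.36 CPM to 13.5, 10.3 and 8.21 CPM, and PPP1R15A, which reverses the translation block, from 13.1, 12.7 and 13.8 CPM to 30.6, 23.7 and 20.04 CPM. In the other direction, 2 chaperone genes of the endoplasmic reticulum, PDIA4 and HSP90B1, were lower. PDIA4 fell to 37.4% of its siMYCN mean and HSP90B1 by 1.03 as deposited and 0.68 rescaled. DDIT3 overlaps MARS on the other strand, which stood at 127 CPM in siMYCN and 95.6 CPM in the combined samples.

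Nuclear long noncoding transcripts and hosts of small nucleolar RNAs were higher in a few members. Beside MEG3, the MIAT level went from 27.2, 29.4 and 34.1 CPM to 114, 107 and 129 CPM, and KCNQ1OT1 from 32.7, 37.5 and 34.2 CPM to 57.5, 83.0 and 110 CPM. The combined samples with the smaller share of reads in listed genes had more KCNQ1OT1, and the part of that share in the result was not tested. GAS5 rose from 46.5, 43.3 and 47.2 CPM to 98.5, 91.7 and 114 CPM, and ZFAS1, SNHG5 and SNHG14 to 125 to 161% of their siMYCN means. Of 15 host genes 4 were higher and 1 lower as deposited, and 8 and 0 rescaled, and of 11 nuclear transcripts 5 and 4, and 5 and 1.

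**Figure D4:**
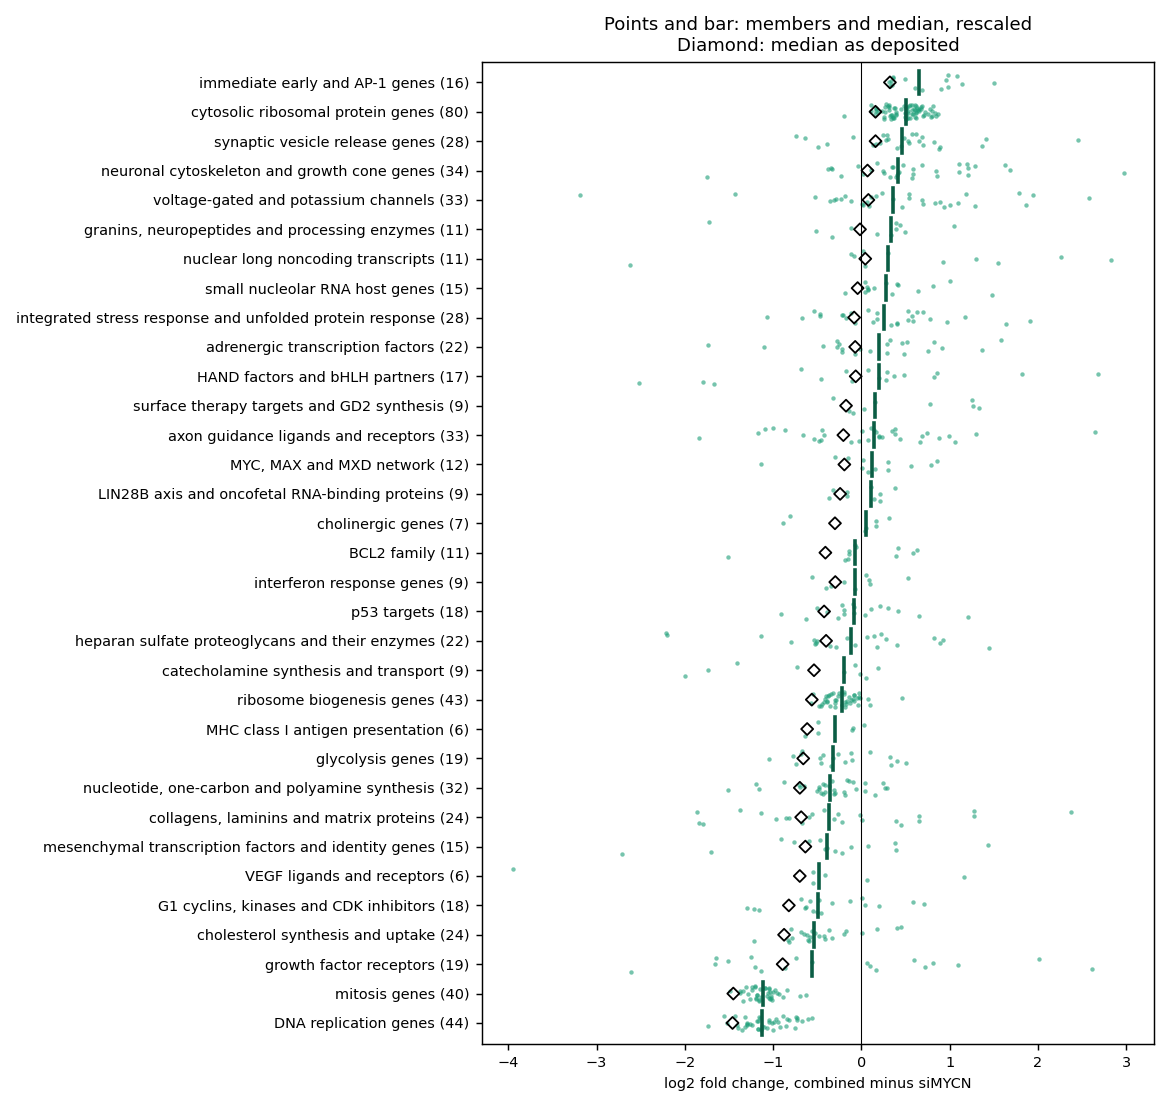
Each row is a gene list with the number of genes tested, the points are its members' rescaled log2 fold changes of combined against siMYCN (x axis), the bar is their median and the diamond is the median as deposited. Replication and mitosis genes lie at the bottom with rescaled medians of -1.13 and -1.11, and immediate early and ribosomal protein genes at the top with 0.65 and 0.51.

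The same knockdown of HAND2 without the MYCN knockdown was compared for each gene, siHAND2 against siCtrl. The group means of these comparisons share no sample, but the same fit gave both the spread of each gene. The rescaling also drew on all samples. The overlap of calls is therefore not that of separate experiments. Called genes numbered 5411 (42.7%) as deposited, 12.3% of genes higher and 30.4% lower, and 6439 (50.8%) rescaled, 25.9% higher and 24.9% lower. On the rescaled values 4923 genes were called in both, 68.5% of the calls in MYCN-low cells and 76.5% of those at the usual MYCN level, and 4891 of them had the same direction, 2501 higher and 2390 lower. As deposited the figures were 4343 genes, 58.1% and 80.3%, with 4324 in the same direction. Across the tested genes the fold changes correlated at r = 0.86 on either scale, given as a description, since genes are not independent and the depth and scaling of a library are common to all its genes.

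Most of the largest changes recurred. GAP43 stood at 7.38, 6.94 and 7.42 CPM in siCtrl and 57.3, 63.7 and 69.8 CPM in siHAND2, a rescaled rise of 3.11 beside 2.97 in MYCN-low cells. NHLH1 rose by 2.73 there and ERBB4 by 2.51. HAND1 fell by 2.13, PHOX2A by 1.87, OPRK1 by 2.64, AHNAK by 2.52 and SULF2 by 2.34. Replication and mitosis genes were lower in all 44 and all 40 as well, against 24.9% of all genes, with rescaled medians of -0.72 and -0.70.

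The difference between the 2 effects, the interaction, was called for 508 genes (4.01%) as deposited (0.355% positive and 3.65% negative) and 779 (6.14%) rescaled (1.67% and 4.47%), and for 392 negative (3.09%) and 42 positive (0.331%) on both scales. A negative value means that HAND2 knockdown lowered the gene more, or raised it less, in MYCN-low cells. These counts moved with single samples: as deposited 4443 genes were called without combined replicate 1, and 1436 rescaled. Among the 779 rescaled interactions, 406 were negative in genes that fell in MYCN-low cells and 157 were positive in genes that rose there. Another 107 were negative in genes that rose and 12 positive in genes that fell. The interaction contains the difference by which these genes were sorted, so the shared sign is partly built in.

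Division genes made up a visible part of the negative interactions. The interaction was negative and called on both scales for 22 of 44 replication genes and 19 of 40 mitosis genes, against 3.09% of all genes. KIF11 went from 134, 133 and 131 CPM in siCtrl to 82.0, 78.1 and 68.2 CPM in siHAND2, a rescaled fall of 0.64 beside 1.37 in MYCN-low cells (interaction -0.73, limma adjusted p 5.7e-04). TK1 fell by 0.78 and 1.56 in the same terms (interaction -0.78, adjusted p 0.0012). For GINS3, ORC1, KIF23, KIF20A, ANLN and CDC25A the rescaled interactions lay between -0.61 and -0.51.

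A second set of genes had been higher in siMYCN than in siCtrl. RGS4, which shortens G protein signals, had 1.35, 1.32 and 1.85 CPM in siCtrl and 13.1, 13.4 and 14.8 CPM in siMYCN. It stood at 6.55, 7.06 and 6.74 CPM in siHAND2 and 10.3, 8.86 and 6.22 CPM in the combined samples, so HAND2 knockdown raised it in one setting (1.74 rescaled) and lowered it in the other (-0.35). MAOA had 26.0, 26.0 and 24.4 CPM in siCtrl, 59.5, 65.5 and 55.8 CPM in siMYCN and 20.2, 22.5 and 19.3 CPM in siHAND2, and its fall in the combined samples was not matched by a call without the MYCN knockdown (-0.14 rescaled, limma adjusted p 0.28). CALB1, a calcium-binding protein, had 4.24, 3.24 and 4.86 CPM in siCtrl, 21.0, 18.8 and 21.2 CPM in siMYCN, 3.48, 4.15 and 3.67 CPM in siHAND2 and 6.53, 5.16 and 3.73 CPM in the combined samples. ALK, CNTN1, NRP1, DBH, SDC2 and BCL2 had the same order, with siMYCN above siCtrl and both HAND2 knockdown groups below siMYCN. Their rescaled interactions lay between -1.45 and -0.74. Because the siMYCN samples enter each of these values, a high siMYCN level makes the fall and the negative interaction larger together.

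Positive interactions were fewer and included stress genes. DDIT3 had 2.81, 2.58 and 3.14 CPM in siCtrl and 4.34, 4.65 and 4.93 CPM in siHAND2, a rescaled rise of 0.67 beside 1.91 in MYCN-low cells (interaction 1.23, limma adjusted p 1.1e-04). ATF3 rose by 0.43 beside 1.64, and ENC1 by 1.75 beside 2.75. VEGFD went from 60.4, 58.6 and 67.9 CPM in siCtrl to 0.0386, 0.765 and 0.914 CPM in siHAND2, the first of which is under 3 reads. Both HAND2 knockdown groups thus averaged under 1 CPM (0.572 and 0.732), close to the floor of the scale, and the interaction of 1.21 stands beside a siMYCN minus siCtrl difference of -1.02. It was not called with a pseudocount of 0.1 (limma adjusted p 0.069) or, as deposited, without a filter (adjusted p 0.090). GOLGA8A, a golgin gene with near copies on the same chromosome, had 15.9, 17.3 and 17.3 CPM in siCtrl, 7.91, 7.89 and 9.56 CPM in siMYCN, 8.12, 11.9 and 16.2 CPM in siHAND2 and 10.8, 11.3 and 15.3 CPM in the combined samples. Its siHAND2 samples were widely spread, and most settings that leave out a sample ended its call after rescaling.

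**Figure D5:**
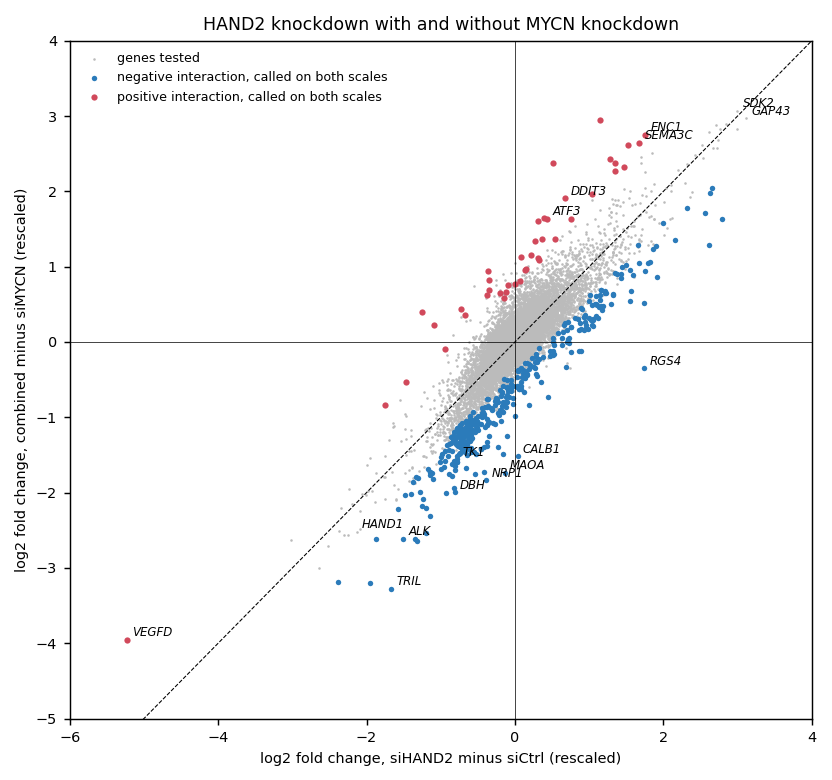
Rescaled log2 fold change of every tested gene, combined against siMYCN (y axis) and siHAND2 against siCtrl (x axis), 1 point per gene, with a dashed line where both are equal. Blue points are the 392 genes with a negative interaction called on both scales and red points the 42 with a positive one; RGS4, MAOA and CALB1 lie below the line and DDIT3, ATF3 and ENC1 above it.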

How the data were processed

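RNA sequencing of 12 IMR32 samples was deposited as 1 table of CPM per gene (27514 genes), made by the authors. STAR 2.5.1, Partek and hg19 (GRCh37) are named, per the submitters' processing notes. The counting rule, annotation and use of strand are not given in the sources used here. Every deposited value carried an added 0.0001, which was removed, and 6391 genes then stood at 0 throughout. Depth was estimated from the value of 1 read. Of values under 20 reads 88.9 to 90.5% came out whole within 0.05 reads, and 80.3 to 81.6% of values of 20 to 200 reads, too few to recover counts, so no count test was run. Replicates differed by a mean chi-square of 3.24 to 35.7 per gene, and no pair was one library. Mitochondrially encoded genes were not analysed here.

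Values were tested as log2(CPM + 1), which understates the change of low genes, for the 12680 genes with a mean of at least 1 CPM. limma 3.58.1 (R 4.3.3; lmFit, eBayes with trend) was fitted to all 4 groups with 8 residual degrees of freedom, two-sided, with Benjamini-Hochberg adjustment over all genes tested and a threshold of 0.05. Median-ratio factors came from genes with a mean of at least 5 CPM. The model was tested on simulated data with known changes. Named genes are the targets and their relatives, and the 10 largest rises and falls called on both scales with separate samples and at least 5 CPM. The 4 largest interactions each way called on both scales were added. So were, for each list, up to 4 members called on both scales with the largest rescaled changes. Other list members named were chosen after their values were seen. The members and lists were chosen with earlier results of these data known. Alternatives were a pseudocount of 0.1, other filters, fits to the compared groups, no trend, the replicate number as a block, stricter thresholds, scaling to the sum over listed genes and leaving out each sample. List counts without combined replicate 1 or 3 or scaled to the listed genes, and leaving out samples on the rescaled values for named genes, were added after seeing the data. Promoter sequences are RefSeq's (GRCh38.p14), matched by symbol. Some named genes are not reported here.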

Additional observations from a re-analysis of the deposited data

Results flagged for a closer look

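For the genes below the interaction term, the difference of the HAND2 knockdown effect between the 2 MYCN settings, was called on both scales. The values are deposited-scale coefficients, and a negative one means a larger fall or a smaller rise in MYCN-low cells. Among genes of signalling and adhesion they were -2.31 for RGS4, -1.66 for TRIL, -1.63 for NRP1, -1.39 for CNTN1, -1.34 for PTGFR, -1.28 for ALK, -1.17 for SDC2 and -0.97 for CD44. Among genes of transmitters and peptides they were -1.78 for MAOA, -1.41 for VIP, -1.29 for DBH and -0.82 for SCG2.

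Other neuronal genes gave -1.73 for CALB1, -1.48 for SEZ6, -1.40 for STMN4, -0.84 for KCNQ5 and -0.61 for ZNF536. The imprinted RNA H19 gave -1.34 and the survival gene BCL2 -0.92. Division and metabolism genes gave -0.96 for TK1, -0.92 for KIF11, -0.80 for KIF20A, -0.79 for GINS3, -0.79 for ANLN, -0.73 for CDC25A, -0.71 for ORC1, -0.69 for KIF23, -0.66 for MXD3 and -0.64 for MTHFD1.

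Positive values were 1.21 for VEGFD, 1.04 for DDIT3, 1.02 for ATF3, 1.00 for GOLGA8A, 0.81 for ENC1, 0.78 for VEGFA and 0.75 for SEMA3C. Beyond the rescaling, alternatives were run only for the interactions of RGS4, TRIL, MAOA, CALB1, VEGFD, DDIT3, ATF3 and GOLGA8A. The calls of VEGFD, ATF3 and GOLGA8A were lost under some of them. The interactions of all other flagged genes were not put through them. In TRIL, PTGFR, DBH, VIP, H19 and VEGFD both HAND2 knockdown groups averaged under 1 CPM, close to the floor of the scale. Their siMYCN minus siCtrl differences as deposited were 1.62, 1.42, 1.29, 1.56, 1.23 and -1.02, opposite in sign to their interactions. SEMA3C averaged 0.174 CPM in siCtrl and 0.766 CPM in siMYCN, against 2.66 CPM in siHAND2 and 8.40 CPM in the combined samples. The plain ratio of these means was not larger in MYCN-low cells. Its positive sign therefore rests on the 1 added before the logarithm.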

How the results depend on the processing

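Of 150 results on named genes, 138 kept their direction and call under every alternative run. The exceptions were small changes (BTG2, BMF, SNHG14, CDKN1C, BAD, IGF2BP3 and GOLGA8A), MYCN and HAND2-AS1 on the rescaled values, and the interactions of VEGFD, ATF3 (limma adjusted p 0.062 without a filter, 1.02 in size) and GOLGA8A. No result changed direction, and the cause of these losses was not tested. With a log2 change of at least 1, combined against siMYCN had 966 called genes as deposited and 764 rescaled, and siHAND2 against siCtrl 507 and 484. Leaving out each sample gave 6414 to 8960 and 6222 to 7350 genes for the former, and 4303 to 4670 and 5484 to 5941 for the latter. The share of reads in listed genes differed by -14.5 to -7.46 percentage points.

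The number of interactions was the least stable. Beside 508 as deposited it was 154 without a filter, 795 scaled to the listed genes, 779 rescaled, 169 at an adjusted p under 0.01 and 69 at a log2 change of at least 1, and beside 779 rescaled it was 298 and 50 at these thresholds. Leaving out single samples gave 263 to 4443 as deposited and 415 to 1436 rescaled. Every siMYCN sample, siCtrl replicates 1 and 3, siHAND2 replicates 1 and 2 and combined replicate 1 each moved it by over 1.5 times.

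Whether the replicate numbers pair the samples was not settled. The column labels are numbered through all 4 groups within each replicate number. Deviations of same-numbered siMYCN and combined samples correlated at -0.02, 0.04 and 0.19 as deposited and -0.04, 0.04 and 0.17 rescaled. These values cover only those groups, so they cannot decide the question. With the replicate block 8069 genes were called for combined against siMYCN as deposited and 7498 rescaled, and 1282 and 1262 interactions. The block also brought MYCN past the threshold on the rescaled values (-0.16, limma adjusted p 0.041), as did a filter at a mean of 5 CPM (adjusted p 0.050, before rounding just under the threshold). Scaling to the sum over listed genes split the combined against siMYCN calls into 3166 higher and 3965 lower. Depth limits genes near 0.0468 to 0.0949 CPM, the worth of 3 reads.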

Other observations

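Some survival, immune and surface genes also differed between combined and siMYCN samples. Over all genes 8.92% were higher and 50% lower as deposited, and 30% and 26.6% rescaled, so most of the list counts below lie near the background. BCL2, the founding anti-apoptotic gene, fell from 51.9, 60.3 and 56.8 CPM to 17.5, 16.8 and 11.1 CPM (-1.85, and -1.52 rescaled, limma adjusted p 6.9e-09), below its siCtrl level of 28.7, 34.2 and 31.7 CPM. Of 11 tested members of its family 1 was higher and 7 lower as deposited, and 4 and 2 rescaled. BMF, a pro-apoptotic member, had 13.6, 12.9 and 13.1 CPM and then 19.4, 17.3 and 13.2 CPM, with overlapping groups as deposited, and BAD fell by 0.51 and 0.18. Among 18 p53 targets 2 were higher and 12 lower as deposited, and 5 and 6 rescaled. BBC3, which encodes PUMA, rose from 3.19, 2.10 and 2.56 CPM to 7.61, 5.62 and 4.51 CPM, BTG2 rose by 0.32 as deposited, and the repair gene DDB2 and the exonuclease gene AEN fell to 38.4% and 50.6% of their siMYCN means.

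Of 6 tested MHC class I genes 4 were lower as deposited and 3 rescaled. B2M, the shared light chain, went from 106, 103 and 97.2 CPM to 55.6, 46.6 and 51.3 CPM, and the peptide loading and trimming genes TAPBP and ERAP1 fell to 54.9% and 54.1%. Interferon genes had 4 of 9 lower on either scale, among them IFI44 at 53.8, 52.8 and 56.3 CPM and then 39.3, 29.6 and 28.2 CPM, IFI6 and IFIT5. In the LIN28B group 5 of 9 were lower as deposited and 3 rescaled, with HMGA1 at -0.72 and -0.37, LIN28B at -0.66 and -0.32 and IGF2BP3 at -0.51 and -0.16. Among 9 surface therapy targets 4 were higher on both scales. DLL3, a Notch ligand, went from 30.3, 26.9 and 32.3 CPM to 70.0, 59.0 and 44.7 CPM, ST8SIA1, the GD3 synthase, from 4.14, 4.52 and 5.43 CPM to 10.2, 11.9 and 8.14 CPM, the somatostatin receptor gene SSTR2 from 464, 445 and 454 CPM to 768, 618 and 483 CPM, and DLK1 from 1.79, 1.33 and 2.12 CPM to 6.31, 5.75 and 2.88 CPM.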
